A study of Rattus norvegicus with 22 samples.

Results

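The genes described here are 8 genes of the podocyte, Nphs1, Wt1, Podxl, Synpo, Ptpro, Plce1, Cd2ap and Magi2. They were chosen by name from the 17334 genes listed for the left kidney of 22 male PKD/Mhm (Cy/+) rats, and all 8 were present. The PKD/Mhm (Cy/+) rat is a Sprague Dawley line with a spontaneous missense mutation in Anks6, and heterozygous animals develop cystic kidneys. All 22 rats, controls included, carried this allele and were examined at 8 months of age. The untreated group held 6 rats. The groups named i.p. ASC and i.v. ASC held 6 rats each, which were given human adipose-derived stromal cells once a month for 6 months into the peritoneal cavity or into a vein. The ASC-derived CM group held 4 rats given the medium conditioned by such cells, by a route that the labels do not give and that the study's texts name differently. The human cells were given to rats, and pieces of whole kidney were sequenced, so each value is a mean over all cell types of the piece. ABCB5+ groups were not analysed here.

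Podocytes are the epithelial cells that wrap the glomerular capillaries, and their interlocking foot processes leave narrow slits through which plasma is filtered. The slit is bridged by the slit diaphragm, a protein sheet built around nephrin, the product of Nphs1. On the inner side of the foot process CD2AP (Cd2ap) and MAGI-2 (Magi2) are adaptors that tie nephrin to the actin skeleton. Synaptopodin (Synpo) binds actin, podocalyxin (Podxl) is a negatively charged surface sialomucin, and PTPRO (Ptpro, also called GLEPP1) is a receptor tyrosine phosphatase of the apical membrane. Plce1 encodes a phospholipase C, and Wt1 a zinc finger transcription factor on which podocyte identity depends. Mutations in NPHS1, WT1, PLCE1, CD2AP, MAGI2 and PTPRO cause inherited nephrotic syndromes in people. Several of these genes are also read outside the podocyte, Podxl in endothelium and Cd2ap in many cell types.

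RefSeq promoter windows of 250 bases before to 50 bases after the gene start, from the rat assembly GRCr8, were found for 7 of the 8 genes. Those of Nphs1, Wt1 and Cd2ap are printed because Nphs1 and Wt1 followed each other most closely with Ptpro over the rats, while Cd2ap stood apart. This choice was made after the correlations and the motif matches were known. All 3 genes lie on the + strand, and the sequences run 5′ to 3′. Capitals mark matches on either strand to the motifs GCGTGGG and GCGGGGG, which are forms bound by WT1 and by EGR factors, TAATTA, a homeodomain form, and CANNTG, the E-box.
Nphs1: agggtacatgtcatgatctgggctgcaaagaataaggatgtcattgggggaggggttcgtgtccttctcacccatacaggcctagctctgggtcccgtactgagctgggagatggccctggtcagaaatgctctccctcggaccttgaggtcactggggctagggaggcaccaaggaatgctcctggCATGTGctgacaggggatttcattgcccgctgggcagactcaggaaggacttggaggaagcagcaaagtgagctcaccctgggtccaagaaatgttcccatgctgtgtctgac
Wt1: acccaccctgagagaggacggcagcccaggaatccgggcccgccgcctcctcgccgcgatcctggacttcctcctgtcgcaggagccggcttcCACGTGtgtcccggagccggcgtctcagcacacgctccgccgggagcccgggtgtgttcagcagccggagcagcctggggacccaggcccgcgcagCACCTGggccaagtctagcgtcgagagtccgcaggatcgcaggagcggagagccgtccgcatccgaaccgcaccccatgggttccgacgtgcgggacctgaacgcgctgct
Cd2ap: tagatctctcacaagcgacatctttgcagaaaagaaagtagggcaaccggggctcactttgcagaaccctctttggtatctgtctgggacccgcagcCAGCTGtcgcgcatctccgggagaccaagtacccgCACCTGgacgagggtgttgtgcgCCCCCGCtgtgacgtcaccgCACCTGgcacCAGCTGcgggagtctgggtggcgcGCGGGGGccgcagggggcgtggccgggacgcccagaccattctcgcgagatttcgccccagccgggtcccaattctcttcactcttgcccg

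The Nphs1 window held 1 E-box, with its first base at -63 from the gene start, and no match to the other motifs. The Wt1 window held 2 E-boxes, at -157 and -61. The Cd2ap window held 4 E-boxes and 2 matches to GCGGGGG, at -95 and -41. The E-box occurred in 72.1% of 33469 promoter windows of the same length, GCGGGGG in 9.16%, GCGTGGG in 4.33% and TAATTA in 5.36%. In the 4 windows not printed the only match was GCGTGGG at -225 of Magi2, and Podxl, Synpo and Ptpro had none. The windows differed in CpG content. Nphs1 had 4 CpG dinucleotides, and 38.0% of all windows had as many or fewer, whereas Wt1 had 34 and Cd2ap 25, with 93.9% and 84.8% of windows at or below them. A match of letters is a description of the window and says nothing about binding in these kidneys.

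The deposited estimated counts summed to between 12195682 and 14734772 per rat, and all 8 genes passed the filter on low counts that left 12867 genes. The fewest reads behind a value were 19 for Wt1 in CM rat 1 and 19 for Magi2 in i.p. ASC rat 1. One set of rats differed in whole-kidney RNA by urothelial genes. In i.v. ASC rats 1, 3, 4 and 5 the mean log2 CPM (counts scaled to library size) of 5 urothelial markers, among them Upk1a and Upk2, which coat the lining of the renal pelvis, was 5.21, 6.23, 1.83 and 3.94. The highest value outside the group was 1.16, in untreated rat 5, and in i.v. ASC rats 2 and 6 it was -0.76 and -1.13. The 4 were taken as the i.v. ASC rats above that highest value, and i.v. ASC rat 4 lay closest to it. Upk2 was listed at 0 in 11 of the 22 rats. Some results are therefore also given without these 4 rats. These are the i.v. ASC differences from untreated rats of the 8 genes and of the wider podocyte, endothelial and mesangial lists. The correlations of the 8 genes with each other and the fit on label numbers are also given without the 4 rats. The DESeq2 counts were made with the 4 rats. Levels are given in TPM (a level per transcript length, scaled to the library).

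Between genes, levels were compared in TPM over the 22 rats. Cd2ap was highest, at 63.1 ± 17.1 TPM (SD, n = 22), followed by Podxl at 36.4 ± 17.2 and Nphs1 at 22.3 ± 9.03. Synpo had 20.1 ± 8.68 TPM, Ptpro 14.1 ± 8.05, Wt1 6.94 ± 4.79, Plce1 4.13 ± 1.48 and Magi2 0.938 ± 0.510. Among neighbours in this order, Cd2ap and Podxl, and Plce1 and Magi2, differed by more than the larger of their SDs. The other neighbours, such as Nphs1 and Synpo, did not. The spread between rats was wide for a tissue level. The highest rat had 22.4 times the Wt1 level of the lowest, 10.4 times the Ptpro level and 6.28 times the Podxl level, against 2.98 times for Cd2ap and 3.71 times for Plce1.

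**Figure D1:**
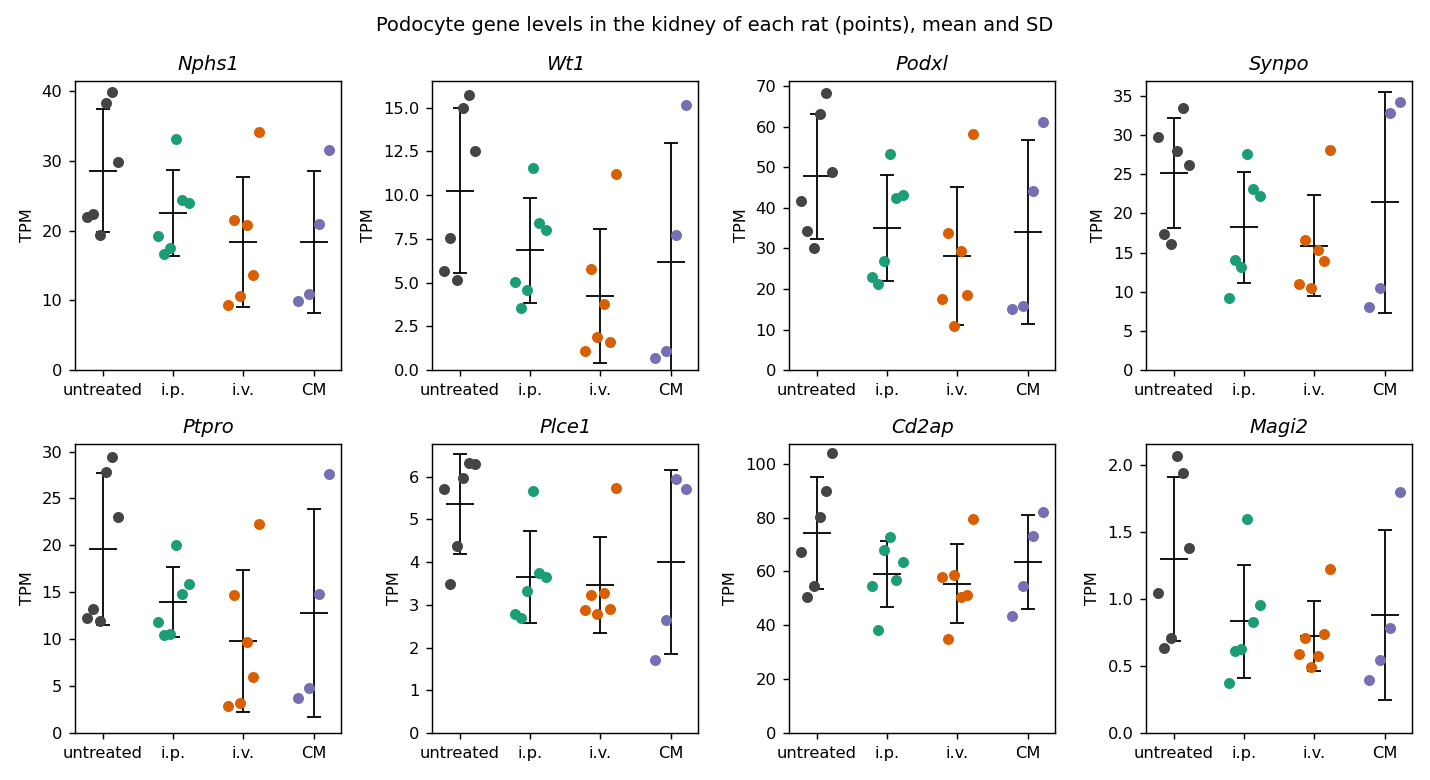
Level of each podocyte gene in TPM (vertical axis) in every rat (points) by group (horizontal axis: untreated, i.p. ASC, i.v. ASC and ASC-derived CM), with the mean and SD as bars, the SD of the CM rats for Wt1 being cut at 0. Every group spans high and low rats, and in no gene are the treated rats of a group separate from the untreated ones.

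The slit diaphragm gene Nphs1 had a lowest, median and highest level of 19.4, 26.1 and 39.8 TPM in untreated rats. In i.p. ASC rats these were 16.7, 21.6 and 33.1 TPM, and in i.v. ASC rats 9.27, 17.3 and 34.2 TPM. The CM rats 1 to 4 had 9.93, 10.9, 20.9 and 31.6 TPM. The groups overlapped, and the lowest rats were i.v. ASC rat 1 and CM rat 1. Nphs1 was the only one of the 8 genes whose counts were not whole numbers, in 22 of 22 rats, as happens when reads are divided between transcripts of different genes.

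Its adaptors Cd2ap and Magi2 were the most and the least abundant of the genes. Cd2ap had a lowest, median and highest level of 50.3, 73.8 and 104.0 TPM in untreated rats, 38.3, 60.2 and 72.8 TPM in i.p. ASC rats, and 34.9, 54.7 and 79.5 TPM in i.v. ASC rats. Cd2ap had 43.5, 54.8, 73.3 and 82.2 TPM in CM rats 1 to 4. Its lowest rat was i.v. ASC rat 2, which was not among the low rats of the other genes. Magi2 had 0.636, 1.21 and 2.07 TPM in untreated rats, 0.377, 0.728 and 1.60 TPM in i.p. ASC rats, and 0.491, 0.648 and 1.22 TPM in i.v. ASC rats. The CM rats had 0.394, 0.548, 0.781 and 1.80 TPM of Magi2, so that all 3 treated groups reached below the untreated range and overlapped it.

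Wt1, the transcription factor, spread most. Its lowest, median and highest levels were 5.18, 10.02 and 15.7 TPM in untreated rats, 3.56, 6.51 and 11.5 TPM in i.p. ASC rats, and 1.11, 2.82 and 11.2 TPM in i.v. ASC rats. CM rats 1 to 4 had 0.7002, 1.102, 7.74 and 15.2 TPM of Wt1. The 5 rats under 2 TPM were i.v. ASC rats 1, 3 and 5 and CM rats 1 and 2, and the next lowest rat had 3.56 TPM. The same 5 rats were also the 5 lowest of all 22 for Nphs1, Podxl and Ptpro.

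The surface and membrane genes Podxl and Ptpro showed these 5 rats as clearly. Podxl had 30.2, 45.3 and 68.4 TPM (lowest, median and highest) in untreated rats, 21.3, 34.7 and 53.2 TPM in i.p. ASC rats and 10.9, 23.96 and 58.3 TPM in i.v. ASC rats, with 15.02, 15.9, 44.3 and 61.3 TPM in CM rats 1 to 4. Ptpro had 11.9, 18.1 and 29.5 TPM in untreated rats, 10.5, 13.3 and 20 TPM in i.p. ASC rats and 2.82, 7.83 and 22.3 TPM in i.v. ASC rats, with 3.72, 4.83, 14.9 and 27.6 TPM in CM rats 1 to 4. In both genes CM rats 3 and 4 lay within the untreated range, while CM rats 1 and 2 lay under it.

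Synpo, the actin-binding member, had 16.1, 27.1 and 33.5 TPM in untreated rats, 9.22, 18.2 and 27.5 TPM in i.p. ASC rats, 10.4, 14.6 and 28.1 TPM in i.v. ASC rats and 8.10, 10.4, 32.8 and 34.2 TPM in CM rats 1 to 4. Plce1, the phospholipase, had 3.48, 5.85 and 6.33 TPM in untreated rats, 2.70, 3.49 and 5.67 TPM in i.p. ASC rats, 2.78, 3.06 and 5.73 TPM in i.v. ASC rats and 1.71, 2.64, 5.96 and 5.71 TPM in CM rats 1 to 4. For both genes the CM rats split into a low and a high pair, and in the i.v. ASC group 5 rats lay together under rat 6.

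The first comparison asked whether a treatment moved the podocyte genes away from their level in untreated cystic kidneys. All 8 genes had a lower fitted level than untreated rats in each of the 3 treated groups, and none passed the threshold in any of them (edgeR quasi-likelihood F test, Benjamini-Hochberg adjusted over 12867 genes, adjusted p threshold of 0.05). The 3 comparisons share the same 6 untreated rats, and 7 of the 8 genes varied together over rats, so the 8 directions in 3 groups are not separate observations. In bulk kidney RNA fewer podocytes and less RNA per podocyte cannot be told apart. The test called 0% of all genes in each of the 3 comparisons, against 500, 1133 and 849 genes at an unadjusted p under 0.05, and DESeq2 called 0, 28 and 4 genes with i.p. ASC, i.v. ASC and CM, with no podocyte gene among them. In no podocyte gene did all rats of a treated group lie below all untreated rats, which 0.124%, 0.155% and 0.987% of all genes did with i.p. ASC, i.v. ASC and CM.

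After i.p. ASC the largest differences from untreated rats were those of Magi2, -0.54 ± 0.35 (log2 fold change ± SE), Wt1, -0.50 ± 0.56, and Plce1, -0.46 ± 0.22. Ptpro had -0.39 ± 0.45, Synpo -0.38 ± 0.30, Podxl -0.36 ± 0.34, Nphs1 -0.25 ± 0.27 and Cd2ap -0.23 ± 0.17. Adjusted p-values from the edgeR quasi-likelihood F test ran from 0.771 to 0.834. At an unadjusted p under 0.05 in either direction were 3.89% of all genes tested and 1 of the 8, Plce1. All sizes taken, 53.8% of genes were lower, with a median of -0.014 over all genes and -0.39 over the 8. The 95% interval of the Nphs1 difference ran from -0.82 to 0.32.

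After i.v. ASC the differences were wider, Wt1 at -1.20 ± 0.57, Ptpro at -0.92 ± 0.45, Magi2 at -0.73 ± 0.35 and Podxl at -0.68 ± 0.34. Synpo had -0.56 ± 0.30, Nphs1 -0.55 ± 0.28, Plce1 -0.53 ± 0.22 and Cd2ap -0.31 ± 0.17. The adjusted p was 0.523 for all 8 in the edgeR quasi-likelihood F test. At an unadjusted p under 0.05 in either direction were 8.81% of all genes and 3 of the 8, Wt1, Plce1 and Magi2. Nphs1, Podxl, Synpo, Ptpro and Cd2ap lay just above it, with unadjusted p from 0.0535 to 0.0782 in the same test, so this limit does not separate the genes. Of all genes 52.5% were lower by any amount, and the median was -0.011 over all genes and -0.62 over the 8. The urothelial markers stood in the same group, and their part in the result was not tested. Without i.v. ASC rats 1, 3, 4 and 5, which leaves 2 rats in the group, Nphs1 had 0.007, Podxl -0.009, Ptpro -0.019, Synpo -0.12, Wt1 -0.22, Plce1 -0.22, Cd2ap -0.34 and Magi2 -0.37, all with an adjusted p of 0.997 in the edgeR quasi-likelihood F test.

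After ASC-derived CM the differences were -0.70 ± 0.64 for Wt1, -0.58 ± 0.31 for Nphs1, -0.57 ± 0.51 for Ptpro, -0.48 ± 0.39 for Magi2 and -0.44 ± 0.39 for Podxl. Plce1 had -0.38 ± 0.25, Synpo -0.20 ± 0.33 and Cd2ap -0.17 ± 0.19. Adjusted p-values from the edgeR quasi-likelihood F test ran from 0.713 to 0.948. None of the 8 had an unadjusted p under 0.05, against 6.60% of all genes, and 50.9% of all genes were lower by any amount, with a median of -0.003 over all genes and -0.46 over the 8. The values rest on 2 rats with low and 2 with high levels. Without CM rat 1 or CM rat 2 the Synpo difference turned to 0.043 and 0.011. Wt1 ranged from -1.68 to -0.35 over the 10 fits that each left out 1 rat of the comparison.

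**Figure D2:**
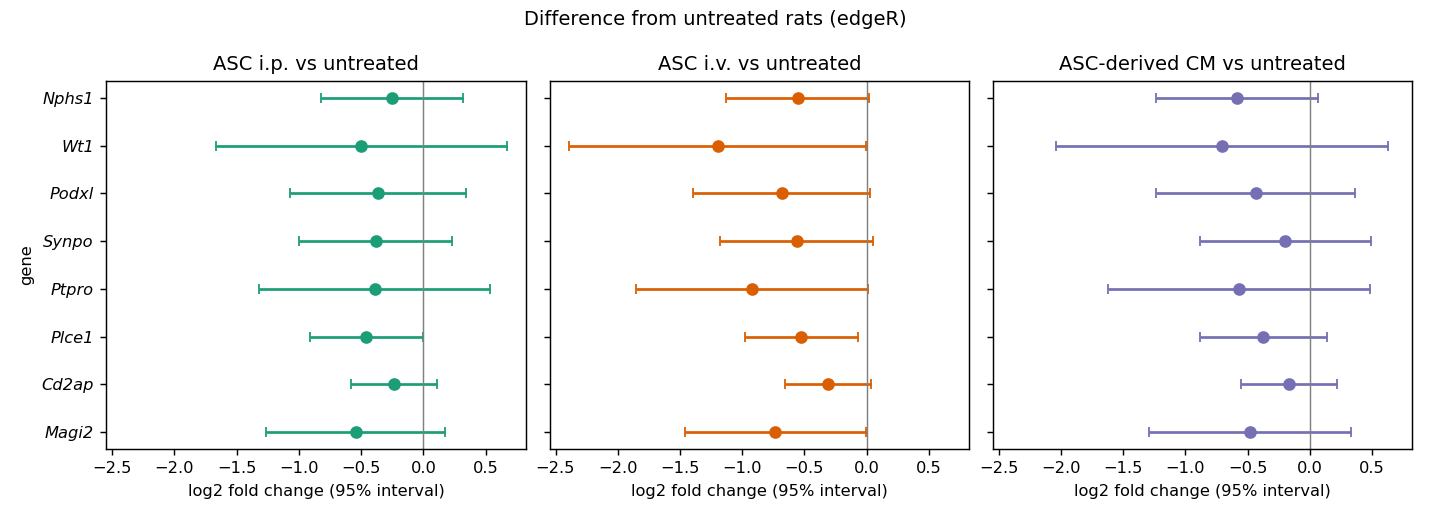
Log2 fold change of each podocyte gene (vertical axis: gene) against untreated rats with its 95% interval (horizontal axis), for i.p. ASC, i.v. ASC and ASC-derived CM, from edgeR over all 22 rats. All 24 points lie below 0 and the intervals of 20 of them reach 0 or more, and no gene passed the threshold after adjustment over 12867 genes. With 1 surrogate variable or the label number in the fit, or without 4 of the i.v. ASC rats, some of the points lie above 0.

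The routes and the medium were also set against each other. In i.v. ASC against i.p. ASC rats all 8 genes were lower, from -0.70 ± 0.57 for Wt1 to -0.066 ± 0.22 for Plce1, with an adjusted p of 1 in the edgeR quasi-likelihood F test for every gene, 0% of all genes called, and 54.1% of all genes lower. Leaving out the 4 i.v. ASC rats with urothelial markers left 2 rats in the group. In that fit 7 of the 8 genes were higher in i.v. ASC rats, Nphs1 by 0.25, and Cd2ap was lower, at -0.13. Of the 2 rats, i.v. ASC rat 6 was among the 6 highest for all 8 genes, so the fit cannot settle the direction. Against i.p. ASC rats the CM rats were lower for 4 genes, Nphs1, Wt1, Podxl and Ptpro, and higher for the other 4, from -0.33 ± 0.31 for Nphs1 to 0.19 ± 0.33 for Synpo, again with 0% of genes called and 46.9% of all genes lower. Against i.v. ASC rats 7 genes were higher in CM rats and Nphs1 was at -0.031 ± 0.31, with 0% of genes called and 45.3% of all genes lower. Without the 4 rats 6 of those 7 turned lower, with Cd2ap the exception. Adjusted p-values from the edgeR quasi-likelihood F test were 0.9998 for CM against i.p. ASC and between 0.993 and 0.995 for CM against i.v. ASC. At an unadjusted p under 0.05 were 2.18%, 2.95% and 4.10% of all genes in these 3 comparisons and none of the 8, and DESeq2 called 24, 2 and 22, no podocyte gene among them.

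The wider list of podocyte and slit diaphragm genes held 64 genes, written with earlier results of these data known, of which 57 were in the files and tested. Of these, 46 were lower than in untreated rats with i.p. ASC, 40 with i.v. ASC and 37 with CM, and none passed the threshold in any comparison. Their median difference was -0.13, -0.19 and -0.12, smaller in size than that of the 8 genes in each comparison. The list is mixed, since 24 of the 57 had a Pearson r of at least 0.7 with Nphs1 over the rats, so its median need not be that of podocytes. Without the 4 i.v. ASC rats with urothelial markers 35 of the 57 were lower with i.v. ASC, with a median of -0.034. By level the list was led by Arhgdia, a GDP dissociation inhibitor, at 622.8 TPM, and Vim, which encodes the intermediate filament protein vimentin, at 499.9 TPM. Vim had 617.2 ± 97.1 TPM in untreated rats and 443.2 ± 123.0 in i.v. ASC rats, a log2 difference of -0.37 ± 0.16 (adjusted p = 0.523, edgeR quasi-likelihood F test), which was -0.073 ± 0.18 without the 4 rats, while Arhgdia had 628.6 ± 25.6 and 622.5 ± 69.8 TPM. Ezr, Itgb1 and Actn4, which encode the membrane linker ezrin, an integrin chain and an actin crosslinker, had 291.8, 268.2 and 253.3 TPM over the 22 rats. Their log2 differences lay between -0.13 and 0.05 in every treated group. Pearson r with Nphs1 was -0.217 for Arhgdia, 0.703 for Vim, -0.326 for Ezr, 0.598 for Itgb1 and 0.520 for Actn4. How much of these levels was read in podocytes was not tested.

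The smallest unadjusted p-values of the list after i.v. ASC belonged to nephrin relatives of the slit. Kirrel1 (NEPH1) had 13.9 ± 5.24 TPM in untreated and 7.18 ± 3.05 TPM in i.v. ASC rats, a log2 difference of -0.85 ± 0.31. Kirrel3 had the opposite sign, with 0.209 ± 0.101 TPM in untreated and 0.509 ± 0.276 TPM in i.v. ASC rats, a log2 difference of 1.37 ± 0.48. Both had an adjusted p of 0.523 in the edgeR quasi-likelihood F test. Without the 4 rats with urothelial markers the differences were -0.42 ± 0.44 for Kirrel1 and -0.035 ± 0.70 for Kirrel3. This fit leaves 2 i.v. ASC rats, and with that SE it cannot say whether the higher Kirrel3 value rests on the 4 rats. With CM the 2 genes with the smallest unadjusted p-values were Kirrel3, at 1.23 ± 0.53, and the transcription factor Foxc1, at 0.46 ± 0.21 (adjusted p = 0.711 for both, edgeR quasi-likelihood F test). With i.p. ASC they were Vim, at -0.33 ± 0.16, and the aminopeptidase Enpep, at 0.63 ± 0.38 (adjusted p = 0.771 for both, edgeR quasi-likelihood F test), neither of them a gene of the slit.

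The second question was whether the podocyte genes varied together over rats. They did, with Cd2ap as the partial exception. Of the 28 pairs of the 8 genes, 26 had a correlation past the threshold (Pearson r of log2 CPM over 22 rats, permutation test with 100000 resamples, Benjamini-Hochberg adjustment over the 28 pairs), and the median r was 0.817. All 21 pairs without Cd2ap passed, with r from 0.743 to 0.972. Nphs1 and Ptpro had r = 0.972 and Spearman's rho = 0.951, Nphs1 and Wt1 r = 0.963 and rho = 0.942, and Wt1 and Ptpro r = 0.961 and rho = 0.966. The permutation p of each was 1e-05, the smallest that 100000 resamples can give, and the adjusted p 1.75e-05.

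Podxl followed these 3 genes at r = 0.929 to 0.939. Synpo had r = 0.904 with Podxl (rho = 0.907) and r = 0.901 with Plce1 (rho = 0.913). Magi2, whose counts were lowest, had r between 0.743 with Ptpro and 0.841 with Synpo among the other 6 genes. The plot of correlations, on the log2 CPM scale, shows a block of 7 genes with Cd2ap outside it.

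Cd2ap, the adaptor also used outside the podocyte, had r from 0.384 with Ptpro to 0.643 with Plce1. Its pairs with Nphs1 (r = 0.398, rho = 0.455, permutation p = 0.0659, adjusted p = 0.0684) and with Ptpro (r = 0.384, rho = 0.523, permutation p = 0.0778, adjusted p = 0.0778) did not pass. On the log2(TPM + 1) scale, and without the 4 i.v. ASC rats with urothelial markers, both passed, at r = 0.602 and 0.565 on the former and r = 0.476 and 0.506 in the latter. On the log2(TPM + 1) scale Cd2ap also had r = 0.809 with Plce1 and 0.745 with Magi2. Its correlations with the other genes were thus closer on that scale. After each value was centred on the mean of its group, 3 further pairs of Cd2ap lost the call, with Wt1 (r = 0.426, adjusted permutation p = 0.0558), Podxl (r = 0.355, adjusted permutation p = 0.112) and Synpo (r = 0.397, adjusted permutation p = 0.0749).

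**Figure D3:**
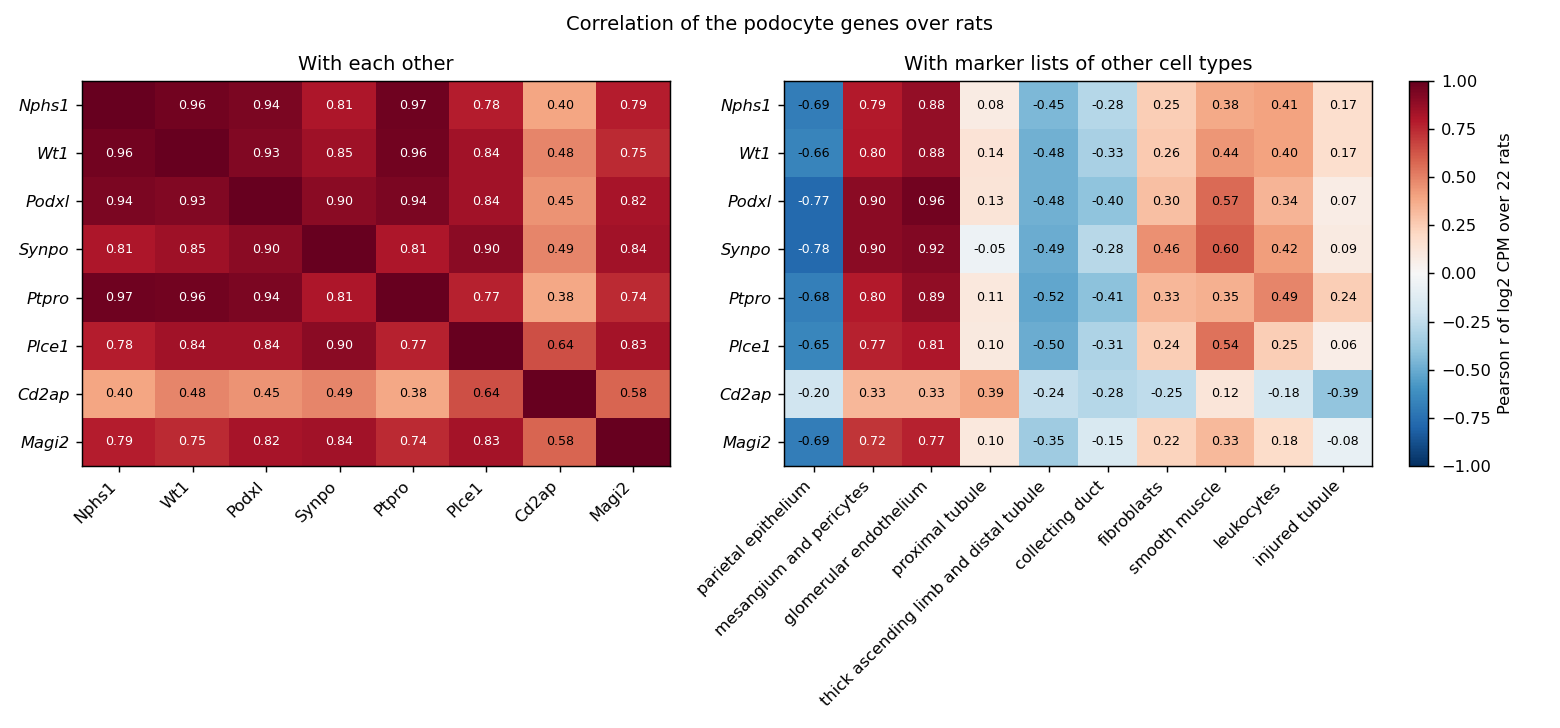
Pearson r of log2 CPM over the 22 rats, between the 8 podocyte genes (left, both axes are genes) and between each gene and the mean log2 CPM of markers of other kidney cell types (right, horizontal axis: cell type), with colour and printed value giving r. The 7 genes other than Cd2ap correlate with each other at 0.74 to 0.97 and with the list for glomerular endothelium at 0.77 to 0.96.

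The relation did not rest on the groups or on the lowest rats. With each gene centred on its group means 23 of the 28 pairs passed and the median r was 0.802. The 5 rats with Wt1 under 2 TPM lay apart from the other 17 in several of the plots, so r was also computed among those 17 rats, where the median was 0.817 and 27 of 28 pairs passed. Without the 4 i.v. ASC rats with urothelial markers the median was 0.830 and 28 of 28 pairs passed. When the 2 rats farthest from the median of the first gene were left out, the 21 pairs without Cd2ap had r between 0.708 and 0.966. Total count per rat had r = -0.219 with Nphs1 (rho = -0.369, permutation p = 0.329 for r and 0.0912 for rho, and r = -0.280 without the 2 rats farthest from the median).

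Over all 12866 other genes tested, 3.96% had r of at least 0.7 with Nphs1, and 6 of the 7 other podocyte genes did. For Wt1 the share of all genes was 4.34%, for Podxl 6.06%, for Synpo 8.91%, for Ptpro 4.90%, for Plce1 4.90% and for Magi2 4.16%, and again 6 of 7 podocyte genes reached 0.7 with each. With Cd2ap 3.85% of genes reached it and 0 of 7 podocyte genes, all on the log2 CPM scale. The value of 0.7 was set after a lower one had been looked at. The genes share libraries and cells, so these shares are a description.

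The genes most like each of the 8, by r over the 22 rats among all genes tested, were mostly other podocyte genes for the first 3. Near Nphs1 were Cdkn1c (r = 0.975), Ddn (0.973), Ptpro (0.972) and Hs3st6 (0.967). Cdkn1c encodes a cell cycle inhibitor of mature podocytes, and Ddn dendrin, a slit diaphragm protein. Near Wt1 were Ddn (0.966), Nphs1 (0.963), Ptpro (0.961) and Clic5 (0.961), and near Ptpro Nphs1 (0.972), Tdrd5 (0.970), Ddn (0.964) and Cdkn1c (0.963). Ddn was thus named for all 3.

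Podxl was nearest to Sema3g (0.983), Clic5 (0.980), Kdr (0.969) and Foxd1 (0.954). Kdr encodes a VEGF receptor of endothelium, in which Podxl is also read. Synpo was nearest to Plpp3 (0.95), Atp10a (0.947), Nrp2 (0.938), Ston1 (0.938) and Scube3 (0.935), none of which was on the podocyte list. Plce1 was nearest to Dagla (0.928), Fem1b (0.906), Sall3 (0.904), Scube3 (0.904) and Synpo (0.901), and Magi2 to Gpc1 (0.893), Lrrn1 (0.884), Myo1c (0.883), Abcg3l3 (0.881) and Mertk (0.876).

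The neighbours of Cd2ap held no podocyte gene. They were Atf6 (0.928), a sensor of stress in the endoplasmic reticulum, Zdhhc21 (0.921), Crk (0.913), an adaptor of many cells, Xiap (0.910), an inhibitor of apoptosis, and Ncoa2 (0.905), a nuclear receptor coactivator. Among the 57 other podocyte genes 3 had r of at least 0.7 with Cd2ap, against 24 with Nphs1, 23 with Wt1 and 24 with Podxl.

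Markers listed for glomerular endothelium and mesangium varied with 7 of the 8 podocyte genes, and those listed for parietal epithelium ran against the same 7. Whether these markers were read only in the glomerulus was not tested. The mean log2 CPM of 7 glomerular endothelial markers, led by Plat at 117.5 TPM and Emcn at 68.2 TPM, correlated with 7 of the 8 genes past the threshold, from r = 0.768 for Magi2 to r = 0.963 for Podxl (permutation test, 100000 resamples, Benjamini-Hochberg adjustment over 88 pairs of gene and list). For 6 mesangial and pericyte markers, led by Rgs5 and Gata3, 7 of the 8 passed, with r up to 0.903. Taken singly, 2 of these 6 markers had r of at least 0.7 with Nphs1, against 5 of the 7 endothelial markers. Cd2ap did not pass with either, at r = 0.334 and 0.329. The groups overlapped in both lists. The mean of the endothelial list ran from 6.11 to 6.58 log2 CPM in untreated rats, from 5.65 to 6.57 in i.p. ASC, from 5.14 to 6.48 in i.v. ASC and from 5.37 to 6.64 in CM rats, and all 7 of its genes had lower fitted levels than in untreated rats in each treated group, none past the threshold. Without the 4 rats high in urothelial markers 2 of the 7 were lower with i.v. ASC. The mean of the mesangial list ran from 5.28 to 5.86 log2 CPM in untreated, 4.78 to 5.81 in i.p. ASC, 4.45 to 5.58 in i.v. ASC and 4.61 to 6.06 in CM rats. The mesangial differences from untreated rats were negative for 6 of 6 genes with i.p. ASC, 4 with i.v. ASC and 3 with CM. None passed the threshold, and without the 4 rats the i.v. ASC count stayed at 4 of 6. Over all genes tested the negative share was 53.8%, 52.5% and 50.9% with i.p. ASC, i.v. ASC and CM. The part of either list in the differences of the podocyte genes was not tested.

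Markers of most tubule and interstitial cells gave few relations past the threshold. No podocyte gene passed with proximal tubule markers (r from -0.047 to 0.387, led by Slc34a1 and Aqp1), collecting duct (led by Aqp2 and Atp6v1b1), fibroblasts (Dcn and Col3a1), leukocytes (Cd68 and Csf1r) or injured tubule markers (Spp1 and Lcn2). Centred on group means, r with fibroblast markers ran from -0.235 for Cd2ap to 0.621 for Synpo, against -0.253 to 0.455 before. For leukocyte markers the centred r ran from -0.200 to 0.596, against -0.178 to 0.487. The centred values were not tested. With thick ascending limb and distal tubule markers, led by Umod and Slc12a3, r was negative for all 8 genes, from -0.519 to -0.240, and 1 passed, Ptpro (adjusted permutation p = 0.0406). With smooth muscle, led by Tagln and Acta2, 3 passed, Podxl, Synpo and Plce1, at r = 0.569, 0.602 and 0.543. With the list for parietal epithelium 7 of 8 passed in the negative direction, from r = -0.775 for Synpo to r = -0.652 for Plce1, and Cd2ap did not. That list was led by Cd24 at 903 TPM and Krt8 at 359.9 TPM, which tubules also express. With urothelial markers r ran from -0.638 to -0.024, and 3 genes passed, Nphs1, Podxl and Ptpro. Those values rest on few rats, since 4 i.v. ASC rats lay above the other 18. For Ptpro r was -0.638 (adjusted permutation p = 0.00936), but -0.288 without the 2 rats farthest from the median. Its Spearman's rho was -0.411 (adjusted permutation p = 0.156). The plot of Nphs1 against these markers shows 3 of those 4 rats low in Nphs1, at 9.27, 10.6 and 13.7 TPM, and the fourth, i.v. ASC rat 4, at 20.8 TPM, while CM rats 1 and 2 were as low in Nphs1 with urothelial means of -0.97 and -1.22.

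**Figure D4:**
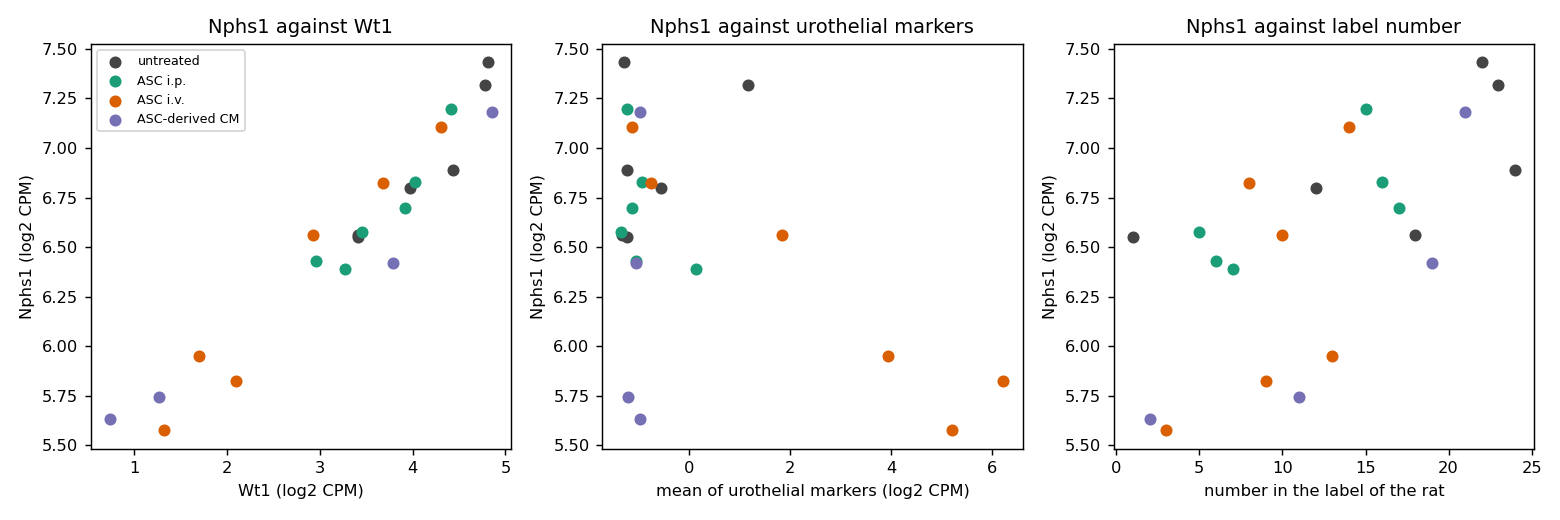
Nphs1 in log2 CPM (vertical axis) of each rat (points, coloured by group) against Wt1 in log2 CPM, against the mean log2 CPM of urothelial markers, and against the number in the label of the rat (horizontal axes). Nphs1 and Wt1 lie on a line (r = 0.963), 4 i.v. ASC rats lie above all other rats in urothelial markers, and rats with higher label numbers have more Nphs1 on the whole (r = 0.645).

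One further measure moved with the genes and was looked at only after the data had been seen, the number that each rat carries in its label, from 1 to 24, whose meaning is not given in the sources used here. All 8 genes were higher in rats with higher numbers, with r from 0.569 for Cd2ap to 0.703 for Magi2 (permutation test over 22 rats, adjusted p up to 0.00541 over 8 genes), Spearman's rho from 0.574 to 0.733, and r between 0.564 and 0.854 without the 2 rats farthest from the median number. Centred on group means r was 0.488 to 0.685. Within single groups of 6 rats r varied more, from -0.003 for Synpo in untreated rats to 0.933 for Podxl in i.p. ASC rats. Cd2ap had 0.217 in i.p. ASC and 0.158 in i.v. ASC rats. The numbers were not spread evenly over the groups, since 4 of the 6 untreated rats held numbers from 18 to 24 and no i.p. ASC or i.v. ASC rat a number above 17. Total count had r = -0.249 with the number (rho = -0.224, permutation p = 0.265 for r and 0.315 for rho, and r = -0.311 without the 2 farthest rats).

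In an edgeR fit with the number beside the group, log2 level per 10 numbers differed by 1.05 ± 0.27 for Wt1, 0.78 ± 0.21 for Ptpro, 0.60 ± 0.16 for Magi2, 0.56 ± 0.16 for Podxl, 0.48 ± 0.13 for Nphs1 and 0.34 ± 0.11 for Plce1. These 6 passed the threshold (adjusted p from 0.0235 to 0.0424, edgeR quasi-likelihood F test, Benjamini-Hochberg adjusted), and Synpo (0.43 ± 0.14, adjusted p = 0.0533) and Cd2ap (0.21 ± 0.087, adjusted p = 0.0941) did not. The same test called 13.3% of all genes, 5.56% with higher levels at higher numbers. Without the 4 i.v. ASC rats with urothelial markers 5 of the 8 passed, and Plce1 did not (adjusted p = 0.0605, edgeR quasi-likelihood F test). The calls also depended on single rats. Without CM rat 1 (number 2) none of the 8 genes and 0 of all genes passed, and without CM rat 4 (number 21) none of the 8 and 2 of all genes. Without CM rat 3 or i.p. ASC rat 1 they were 3 genes each, with 453 and 783 of all genes, and without untreated rat 1 they were 8, with 4758. Without untreated rat 5, i.v. ASC rat 6 or i.p. ASC rat 4 they were 4 each, with 880, 949 and 1068 of all genes, and without i.p. ASC rat 6 they were 6, with 997. The slopes of all 8 genes stayed above 0 in each of the 22 fits that left out 1 rat, Nphs1 from 0.40 to 0.61 and Wt1 from 0.88 to 1.44. With the number in the fit the i.p. ASC difference from untreated rats was 0.016 for Nphs1, 0.067 for Wt1 and 0.080 for Ptpro. Podxl, Synpo, Plce1, Cd2ap and Magi2 stayed lower with i.p. ASC in this fit. All 8 genes stayed lower than in untreated rats with i.v. ASC and with CM. Label number and group overlap in this design, and which of them the levels follow was not tested further.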

How the data were processed

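Total RNA of the left kidney was sequenced by the authors on the BGISEQ-500 platform, after the piece had been snap-frozen. Per the labels, reads were processed with Trim Galore 0.6.4 and kallisto 0.4.6 and the genome build rn6. The authors deposited an estimated count and a TPM value per Entrez gene and rat. The TPM values that the authors deposited sum to between 959754 and 968550 per rat. Of the 17334 genes, 17179 were given a symbol through RefSeq (GRCr8, for names and promoter windows only). The counts, of which 14.1% were not whole, were rounded.

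Differences were tested with edgeR 4.0.16 (R 4.3.3, TMM, filterByExpr, quasi-likelihood F test, a mean for each of the 4 groups). P-values of the 12867 genes were Benjamini-Hochberg adjusted and called under 0.05. A prior count of 2 entered log2 CPM. Correlations over rats were tested with 100000 permutations (numpy 2.4.6, scipy 1.17.1). The scripts were tested on simulated data. The results were recomputed with RLE size factors, with DESeq2 1.42.0, without a filter, with at least 10 counts in every rat, fits of 2 groups, limma 3.58.1 (trend) for log2(TPM + 1) and log2(TPM + 0.1), 1 surrogate variable (sva 3.50.0), a prior count of 0.5, and leaving out each rat.

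The members and lists were chosen with earlier results of these data known. The fits with the label number, the fits without the 4 i.v. ASC rats or without the 5 rats with low Wt1, the value of 0.7 for likeness and the choice of the printed promoters were made after values had been seen. All 8 genes are named in every comparison. From the wider list the 5 genes with the highest mean TPM and, per comparison with untreated rats, the 2 with the smallest unadjusted p are named. The urothelial marker Upk2 and the wider-list genes of the closing section were picked after their values were seen. For likeness the 5 genes with the highest r are named, except 1 that is not reported here, and from each list of another cell type those with the highest mean TPM. No source says which rats shared a cage or a day, and the counts of any 2 rats of a group differed by more than sampling noise (chi-square per gene from 7.52 to 146.8). No rat was in more than 1 group.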

Additional observations from a re-analysis of the deposited data

How the results depend on the processing

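No podocyte gene passed the threshold against another group under any alternative. DESeq2 called 28 genes for i.v. ASC and 4 for CM against untreated rats, 24 for i.v. ASC against i.p. ASC, and 2 and 22 for CM against i.p. ASC and i.v. ASC, where edgeR called 0. The fit of 2 groups called 1 gene for CM against untreated rats, and 1 surrogate variable called 4 for i.v. ASC against i.p. ASC. Leaving out 1 rat gave 0 to 14 genes for i.v. ASC against untreated and 0 to 13 against i.p. ASC rats, above 0 without i.v. ASC rat 2 (11 and 13) or rat 6 (14 and 13). The cause was not tested.

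Directions turned as follows (log2 fold changes, none past the threshold). With 1 surrogate variable, i.p. ASC against untreated gave Nphs1 0.033, Wt1 0.131 and Ptpro 0.146, and CM against untreated gave Synpo 0.068. With the label number, i.p. ASC against untreated gave Nphs1 0.016, Wt1 0.067 and Ptpro 0.080. CM against i.p. ASC gave Plce1 -0.060 and Magi2 -0.143 with the label number, and Plce1 -0.002 and Magi2 -0.011 with log2(TPM + 0.1). CM against i.v. ASC gave Wt1 -0.292, Podxl -0.086, Ptpro -0.148, Plce1 -0.053 and Magi2 -0.082 with the label number. Without the 4 i.v. ASC rats with urothelial markers, i.v. ASC gave Nphs1 0.007 against untreated, and against i.p. ASC Nphs1 0.25, Wt1 0.26, Podxl 0.34, Synpo 0.25, Ptpro 0.36, Plce1 0.23 and Magi2 0.16. Without them, CM against i.v. ASC gave Wt1 -0.49, Podxl -0.43, Synpo -0.081, Ptpro -0.55, Plce1 -0.16 and Magi2 -0.11.

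Leaving out 1 rat turned directions in 4 comparisons. Synpo ranged from -0.52 to 0.043 for CM against untreated. For i.v. ASC against i.p. ASC, Plce1 ranged from -0.19 to 0.080, Magi2 from -0.33 to 0.072 and Cd2ap from -0.16 to 0.011. For CM against i.p. ASC, Wt1 ranged from -1.19 to 0.14, Podxl from -0.54 to 0.14, Ptpro from -0.91 to 0.095, Synpo from -0.14 to 0.42, Plce1 from -0.16 to 0.30, Cd2ap from -0.059 to 0.15 and Magi2 from -0.55 to 0.32. For CM against i.v. ASC, Nphs1 ranged from -0.44 to 0.16, Wt1 from -0.48 to 0.96, Podxl from -0.22 to 0.50, Ptpro from -0.38 to 0.68, Plce1 from -0.090 to 0.37 and Magi2 from -0.36 to 0.46. The label number fit gave 0 to 8 podocyte genes and 0 to 4758 genes in all when 1 rat was left out. The median r of the 28 pairs ranged from 0.782 to 0.841 and the pairs past the threshold from 23 to 28. No paired analysis was possible because each label number occurs in 1 rat only and no number is shared between groups. Depth limits Wt1 and Magi2 most, with as few as 19 counts in a rat.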

Other observations

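Some genes of the wider podocyte list ran against Nphs1 over the 22 rats. Kirrel3, a nephrin relative, had r = -0.873 with Nphs1, and Coq2, a coenzyme Q enzyme whose loss causes nephrotic syndrome in people, r = -0.707. Of the 57 genes, 24 had r of at least 0.7 with Nphs1, among them Cdkn1c (0.975), Ddn (0.973), Foxd1 (0.963), Clic5 (0.957) and Sema3g (0.956). The transcription factors Lmx1b (0.296) and Tcf21 (0.581), the basement membrane chains Col4a3 (0.346) and Col4a4 (0.216), the channel Trpc6 (0.481) and the actin crosslinker Actn4 (0.520) followed it less closely. These genes were picked after their values were seen, and the values are descriptions with no test.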
